A study of Mus musculus with 16 samples.

Results

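Transcripts of 10 hypothalamic neuropeptide genes were examined in RNA-seq libraries of microglia sorted from mouse brain. The genes were selected by name, as the rows of the count and FPKM (counts scaled by the length of the transcript and the depth of the library) tables with the symbols Hcrt, Pmch, Avp, Oxt, Pomc, Agrp, Trh, Crh, Gal and Cartpt. All 10 symbols were found among the 21878 mRNAs of the tables, and all 10 passed the filter on low counts that left 17885 mRNAs for testing. The 16 libraries came from 8 EAE mice and 8 PBS-treated mice, all female wild-type C57BL/6 animals aged 8 weeks, with 1 library per mouse. EAE, experimental autoimmune encephalomyelitis, is a mouse model of multiple sclerosis. It was induced with a MOG peptide in complete Freund's adjuvant together with pertussis toxin, while the other group received PBS. The treatment label of each EAE mouse starts the peptide at residue 35 and ends it at a different residue, from 55 in EAE 1 to 62 in EAE 8, whereas the protocol text gives 35 to 55 for all. Brains were taken 14 days after immunization, at clinical scores of 3 to 4, and cells in the CD11b+/CD45int gate were sorted after a Percoll gradient. Every library is labelled as microglia, the labels name no brain region, and the PBS-treated mice are not labelled as given adjuvant or toxin.

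Neuropeptides are made by neurons as large precursors, cut by prohormone convertases in dense-core vesicles and released to act on G protein-coupled receptors. Several of these genes are transcribed at very high levels in small groups of hypothalamic neurons that control feeding, arousal, water balance and the pituitary, and some are also expressed in neurons elsewhere in the brain. Microglia are not known as a main source of these peptides. The levels of their transcripts are set here beside tissue markers of each library, and whether they measure tissue content was not tested.

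The libraries held 24587443 to 34184576 counts each. Markers of microglia were present, but they were not the most abundant of the cell type markers. The mean FPKM per gene over 15 microglia markers was 6.98–12.8 across the libraries, against 82.2–104 over 13 neuron markers, 146–223 over 8 astrocyte markers and 117–163 over 8 oligodendrocyte markers. Csf1r, a growth factor receptor on which microglia depend, had an FPKM of 33.5 ± 6.37 in EAE libraries (SD, n = 8) and 29.7 ± 4.55 in PBS libraries, whereas Snap25, a protein of the synaptic release machinery, had 209 ± 19.4 and 211 ± 10.5. The marker levels thus go against a label of microglia alone, although the methods describe the sorted cells as almost pure when gated again. In bulk RNA, fewer cells of a type and less RNA per cell cannot be told apart. The libraries were also unevenly alike. For each pair within a group, the median squared difference between their count shares was set against counting noise, which alone gives a ratio of 1. EAE 6, EAE 7 and EAE 8 gave 3.13–3.60 and PBS 5, PBS 7 and PBS 8 gave 3.27–4.03, against at least 6.08 for all remaining pairs. No label names a batch, and values within these 6 libraries and within the other 10 are given for each of the 10 genes and for some of the listed genes. The 6 libraries were picked from these same counts for their small differences within each group. The SE and the p-values of fits within them can therefore be too small.

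None of the 10 neuropeptide transcripts passed the test between the groups. With edgeR's quasi-likelihood test, 0 of 10 had an adjusted p under 0.05, where 2.42% of all tested mRNAs had (1.76% lower and 0.66% higher in EAE mice), and 0 of 10 also exceeded a |log2FC| of 1, where 0.117% did. At an unadjusted p under 0.05 there were 4, Trh, Crh, Pmch and Cartpt, all lower in EAE mice, against 9.52% of all tested mRNAs in that direction and 17.4% in either. DESeq2 gave 1 transcript with an adjusted p under 0.05, Trh, where 3.73% of the mRNAs were lower. Limma on log2 FPKM gave 0, where 73 of 17885 mRNAs were lower with 0.1 added to the FPKM and 80 with 1 added. The fitted log2FC was below 0 for 9 of the 10 genes (10 with RLE factors and 8 with library totals alone), compared with 47.3% of all tested mRNAs, and its median was −0.41, compared with 0.01. The scaling also set the split of all mRNAs with an adjusted p under 0.05, which was 118 higher and 315 lower with TMM and 226 higher and 103 lower with library totals alone. The FPKM values of the groups overlapped for all 10 genes, where 0.263% of the tested mRNAs had groups that did not overlap. Every library held at least 12 counts of each of the 10 transcripts.

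**Figure D1:**
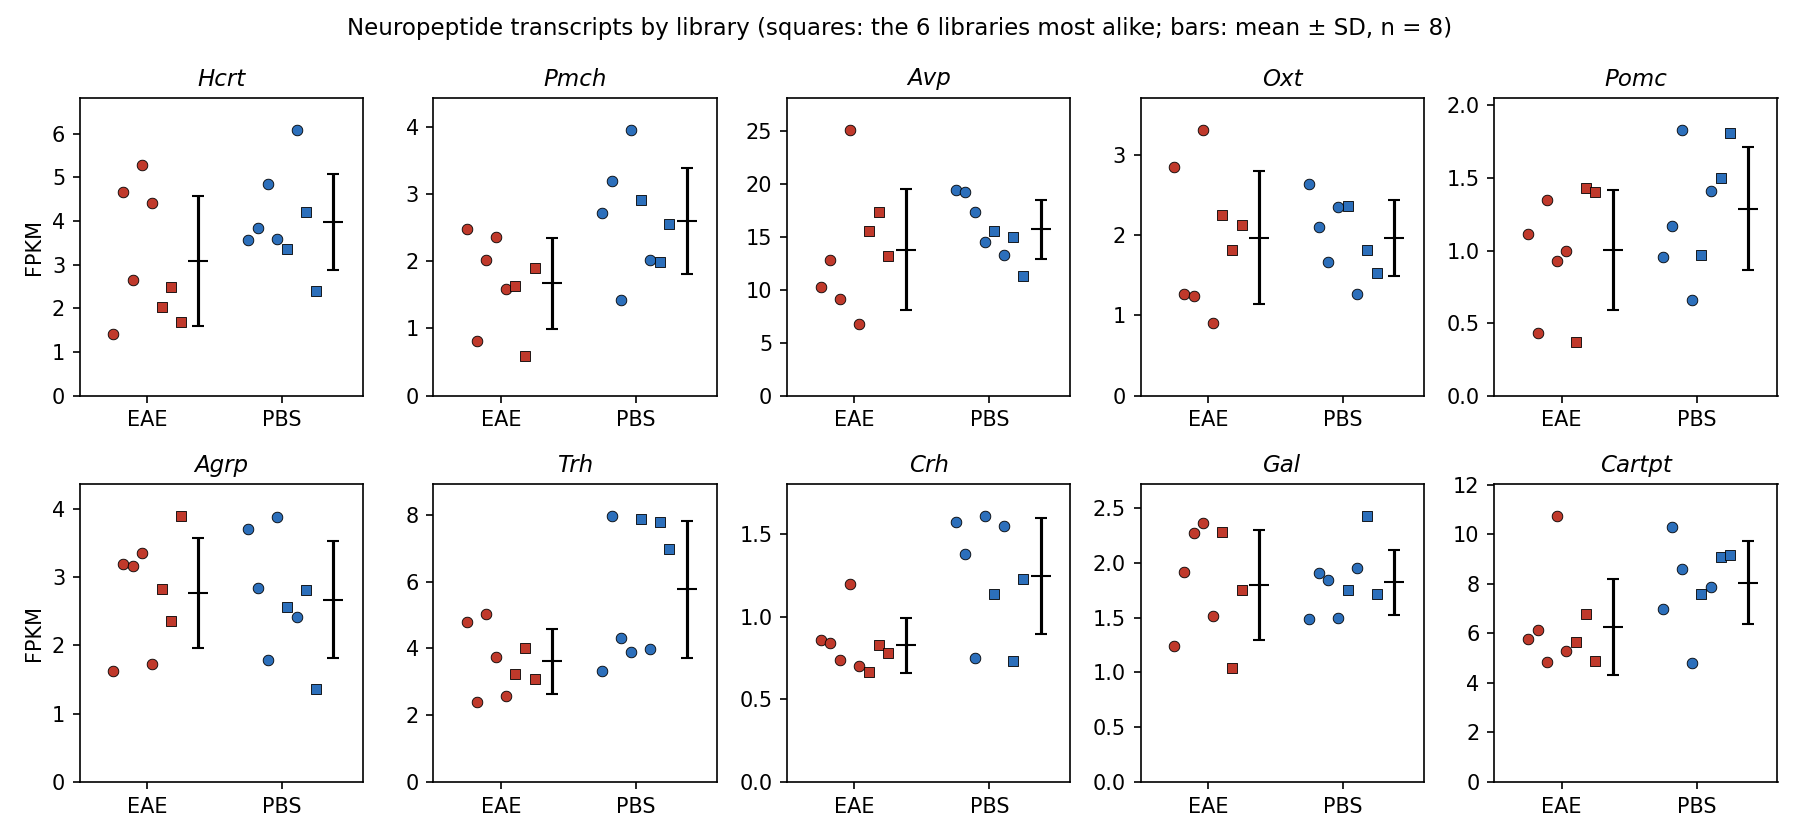
FPKM of the 10 neuropeptide transcripts (vertical axes, linear from 0) in each library of the EAE group (red, n = 8) and the PBS group (blue, n = 8), ordered by replicate number; squares mark EAE 6–8 and PBS 5, 7 and 8, and bars the mean ± SD. The groups overlapped for every gene, and all 8 EAE libraries lay below the PBS median for Pmch, Trh and Crh.

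The releasing hormones Trh and Crh had the smallest p-values. Trh encodes the precursor of thyrotropin-releasing hormone, which drives thyrotropin secretion, and lies on chromosome 6 at chr6:92242061-92244650 (GRCm38, minus strand). Its FPKM in the EAE libraries was 2.38 at the lowest, 3.50 at the median and 5.03 at the highest, and in the PBS libraries 3.33, 5.64 and 7.97. All 8 EAE libraries lay below the PBS median. PBS 2, PBS 5, PBS 7 and PBS 8 lay between 6.98 and 7.97, above every EAE library, and the remaining 4 PBS libraries lay between 3.33 and 4.30, within the EAE range. The log2FC was −0.73 (SE 0.20), with an adjusted p of 0.0594 by the edgeR test. Of the 4 high PBS libraries, 3 are among the 6 most alike. Within those 6 the log2FC of Trh was −1.16 (SE 0.13, adjusted p = 7.21e-07 by edgeR). That SE and p can be too small, since the 6 were picked for their small spread. Trh was the only 1 of the 10 genes that exceeded a |log2FC| of 1 there. In that set 0.423% of the mRNAs were called lower and 13.1% had a lower value at an adjusted p under 0.05. Within the other 10 libraries the log2FC was −0.42 (SE 0.26, adjusted p = 0.631 by edgeR). The difference between the 2 sets was 0.74 (SE 0.37, adjusted p = 0.637 for the edgeR interaction term) and did not pass the test. Leaving out 1 library at a time gave adjusted p-values of 0.0348 to 0.136 for Trh in edgeR. They were under 0.05 in 4 of 16 fits, without EAE 4 (0.0414), PBS 1 (0.0348), PBS 4 (0.0359) or PBS 6 (0.0386), in which 4.57%, 1.57%, 2.07% and 2.06% of the mRNAs were lower at that threshold.

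The start of Trh is shown because it had the smallest p-value of the 10 genes. Sequences upstream of the transcription start were taken from RefSeq (GRCm38.p6) for 8 of the 10 genes, all but Agrp and Crh, and were searched over 250 bases on both strands for TGACG, a half-site of the cAMP response element, and for TATAA, the core of a TATA box. These letters occur in 17.8% and 22.8% of the 32851 promoters of that length, and both in 2.8%. Among the 8 genes, 2 held the half-site and 4 held TATAA. The 150 bases before the Trh start, at chr6:92244651-92244800 on the minus strand, read as follows, with the half-site 96 bases and TATAA 26 bases upstream in capitals.
Trh: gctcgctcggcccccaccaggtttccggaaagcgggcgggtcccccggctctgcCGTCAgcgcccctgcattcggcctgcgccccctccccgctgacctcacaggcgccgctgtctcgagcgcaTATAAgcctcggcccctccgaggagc
A match of letters is a description of the sequence and not of its use.

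Crh encodes corticotropin-releasing hormone, which activates the pituitary-adrenal axis, at chr3:19693401-19695396 on the minus strand. It had the lowest level of the 10 genes, with an FPKM of 0.663, 0.802 and 1.20 (lowest, median and highest) in EAE libraries and 0.731, 1.30 and 1.61 in PBS libraries, from 23–41 and 27–61 counts per library. All 8 EAE libraries were below the PBS median and 5 PBS libraries were above every EAE library, whereas PBS 3, PBS 5 and PBS 7 were within the EAE range. The log2FC was −0.64 (SE 0.21, adjusted p = 0.104 by edgeR). The highest EAE value was that of EAE 4, while the other 7 EAE libraries lay between 0.663 and 0.858. Without EAE 4 the log2FC was −0.73 and the adjusted p was 0.0372 in edgeR, where 4.57% of the mRNAs were lower, and the range over all fits without 1 library was 0.0372 to 0.195. The log2FC was −0.47 within the 6 libraries most alike and −0.73 within the other 10.

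The lateral hypothalamus was represented by Hcrt and Pmch. Hcrt encodes the orexins, peptides that sustain wakefulness, and lies at chr11:100761069-100762931 on the minus strand. Its FPKM was 1.42, 2.57 and 5.27 in EAE libraries and 2.39, 3.71 and 6.08 in PBS libraries, again as lowest, median and highest. EAE 2, EAE 4 and EAE 5 were above the PBS median, and EAE 1, EAE 6 and EAE 8 were below every PBS library. The log2FC was −0.42 (SE 0.26, adjusted p = 0.422 by edgeR), with adjusted p-values of 0.185 to 0.589 when 1 library was left out. It was −0.71 within the 6 libraries most alike and −0.31 within the other 10.

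Pmch encodes the precursor of melanin-concentrating hormone, a peptide of feeding and sleep, at chr10:88091072-88092375 on the plus strand. It overlaps Parpbp on the other strand, and since the strand setting of the counting is not given in the sources used here, reads of the overlap may belong to either gene. Its FPKM was 0.584, 1.76 and 2.47 in EAE libraries and 1.43, 2.64 and 3.95 in PBS libraries. All 8 EAE libraries were below the PBS median, and 5 PBS libraries exceeded every EAE library. The log2FC was −0.69 (SE 0.26, adjusted p = 0.173 by edgeR), and the adjusted p stayed between 0.0904 and 0.305 when 1 library was left out. Within the 6 libraries most alike the log2FC was −0.89, and within the other 10 it was −0.59. The highest value over all libraries was 6.77 times the lowest, the widest span of the 10 genes. Its sequence is shown as that of another gene with an unadjusted p under 0.05. The 150 bases before its start, at chr10:88090922-88091071 on the plus strand, held TATAA 27 bases upstream, in capitals, and no half-site.
Pmch: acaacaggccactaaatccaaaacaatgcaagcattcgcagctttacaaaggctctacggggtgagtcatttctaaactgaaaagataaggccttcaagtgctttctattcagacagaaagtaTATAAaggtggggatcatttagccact

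Avp and Oxt encode vasopressin, which retains water, and oxytocin, which acts in birth, lactation and social behaviour, each with its carrier neurophysin. The genes face each other on chromosome 2, Oxt at chr2:130576173-130577054 on the plus strand and Avp at chr2:130580620-130582554 on the minus strand, 3565 bases apart. Avp was the most abundant of the 10 transcripts, with an FPKM of 6.76, 13.1 and 25.1 in EAE libraries and 11.4, 15.3 and 19.4 in PBS libraries. EAE 4 had the highest and EAE 5 the lowest value of all libraries, and the PBS range lay between them. The log2FC was −0.24 (SE 0.19, adjusted p = 0.567 by edgeR). It was 0.11 within the 6 libraries most alike and −0.46 within the other 10. Oxt had an FPKM of 0.905, 1.97 and 3.31 in EAE libraries and 1.27, 1.96 and 2.64 in PBS libraries. EAE 4 and EAE 5 again held the highest and the lowest value, and the groups had nearly the same median. The log2FC was −0.05 (SE 0.22, adjusted p = 0.938 by edgeR), and it turned to 0.02, 0.03, 0.06 or 0.02 without EAE 2, EAE 3, EAE 5 or PBS 1, respectively. It was 0.08 within the 6 libraries and −0.14 within the other 10.

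Across the 16 libraries Avp and Oxt varied together. Their log2 CPM values (counts scaled to library size after TMM normalization) had a Pearson r of 0.70 (p = 0.00209, two-sided permutation test with 100000 resamples, adjusted p = 0.0167 over 8 pairs of genes) and a Spearman rho of 0.57 (permutation p = 0.0253, adjusted p = 0.203). Only the Pearson value passed the correction. Without EAE 3 and EAE 5, the libraries farthest from the Avp median in log2 CPM, r was 0.42 (permutation p = 0.129) and did not pass. Leaving out libraries that are extreme in Avp narrows its range, which can itself lower r. The r was 0.46 within the 6 libraries most alike (exact permutation p = 0.364) and 0.72 within the other 10 (permutation p = 0.0213, adjusted p = 0.170). With the group means removed r was 0.71. The coding sequences of the genes, 504 bases for Avp and 375 for Oxt in GENCODE M21, share identical letters in 318 of 504 aligned columns (63.1%), and their longest identical run has 127 bases. It is shown because its letters do not tell the 2 genes apart. Of its bases, 125 lie at chr2:130581133-130581257 in Avp and 125 at chr2:130576591-130576715 in Oxt, and the remaining 2 lie in the preceding exon of each gene.
Avp and Oxt: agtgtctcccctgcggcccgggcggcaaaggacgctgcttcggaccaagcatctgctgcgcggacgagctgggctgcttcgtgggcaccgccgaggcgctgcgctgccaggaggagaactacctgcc
Reads as sequenced were longer than this run, and only a read shortened by trimming could lie wholly within it. How reads with several matches were counted is not given in the sources used here, and the part of such reads in the correlation was not tested.

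**Figure D2:**
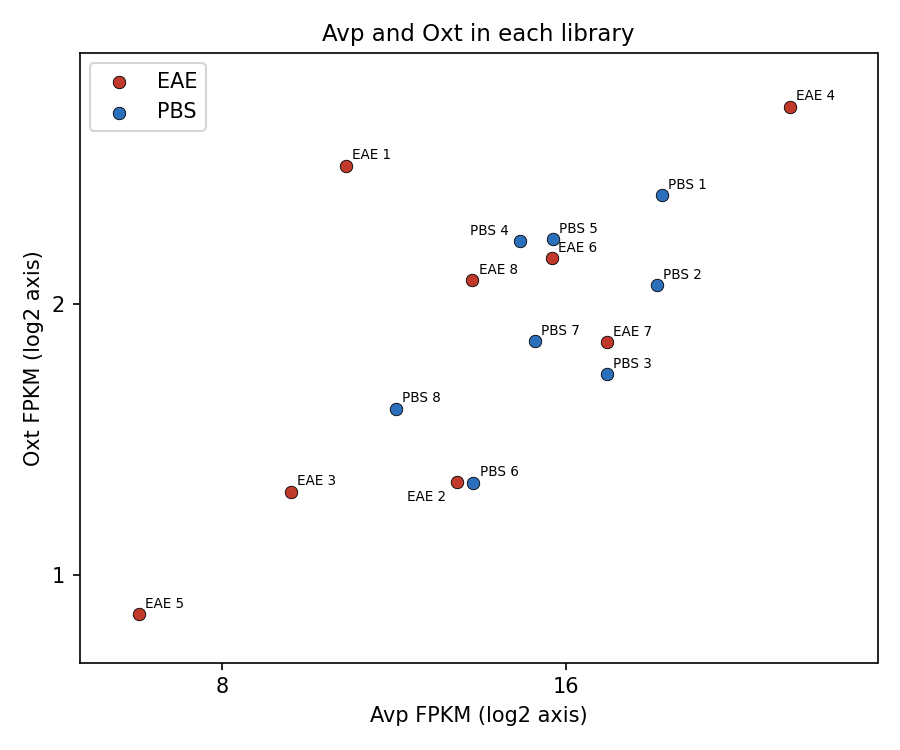
FPKM of Avp (horizontal, log2 axis) against FPKM of Oxt (vertical, log2 axis) in each of the 16 libraries, EAE in red and PBS in blue. EAE 4 is highest and EAE 5 lowest in both. The Pearson r of log2 CPM was 0.70, and 0.42 without EAE 3 and EAE 5, the farthest from the Avp median in log2 CPM.

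Pomc and Agrp mark the opposing feeding neurons of the arcuate nucleus: Pomc encodes the precursor of the melanocortins, which limit food intake, and Agrp encodes the antagonist of their receptors. Pomc lies at chr12:3954951-3960642 on the plus strand. Its FPKM was 0.373, 1.05 and 1.43 in EAE libraries and 0.657, 1.29 and 1.83 in PBS libraries. EAE 2 and EAE 6 were below every PBS library and 3 PBS libraries were above every EAE library, with a log2FC of −0.41 (SE 0.28, adjusted p = 0.475 by edgeR). It was −0.44 within the 6 libraries most alike and −0.39 within the other 10. Agrp had an FPKM of 1.62, 2.99 and 3.89 in EAE libraries and 1.35, 2.68 and 3.87 in PBS libraries. Both ranges were almost the same, and the log2FC was 0.0002 (SE 0.22, adjusted p = 1.00 by edgeR). The sign of that value changed in several settings, with 0.39 within the 6 libraries and −0.23 within the other 10, and no direction is given for Agrp. Its annotated span, chr8:105566698-105637393 on the minus strand, overlaps 7 other genes, among them Ripor1 and Ctcf on the plus strand, so that its counts are uncertain. Across the libraries Pomc and Agrp had an r of −0.38 (permutation p = 0.139, adjusted p = 0.506).

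Gal and Cartpt are expressed in the hypothalamus and in many other regions. Gal encodes galanin, an inhibitory peptide, at chr19:3409915-3414544 on the minus strand. Its FPKM was 1.04, 1.83 and 2.37 in EAE libraries and 1.48, 1.80 and 2.43 in PBS libraries, with EAE 1 and EAE 7 below every PBS library and PBS 7 above every EAE library. The log2FC was −0.07 (SE 0.20, adjusted p = 0.890 by edgeR), with −0.25 within the 6 libraries most alike and 0.03 within the other 10. Cartpt encodes the CART peptide, which limits feeding, at chr13:99898489-99901091 on the minus strand. Its FPKM was 4.83, 5.72 and 10.7 in EAE libraries and 4.81, 8.24 and 10.3 in PBS libraries. In the EAE group, 7 of 8 libraries lay below the PBS median. EAE 4 was the highest of all libraries and PBS 4 the lowest. The log2FC was −0.42 (SE 0.16, adjusted p = 0.185 by edgeR). Without EAE 4 it was −0.57 with an adjusted p of 0.0157 in edgeR, where 4.57% of the mRNAs were lower, and the adjusted p reached 0.348 when another library was left out. Within the 6 libraries most alike the log2FC of Cartpt was −0.60 (SE 0.15, adjusted p = 0.00421 by edgeR, with 13.1% of the mRNAs lower). The same limit on the SE and p holds there as for Trh. Within the other 10 the log2FC was −0.31 (adjusted p = 0.721 by edgeR). The 150 bases before 1 RefSeq start, at chr13:99900684-99900833 on the minus strand, lie inside the GENCODE span above, which holds a transcript with a start farther upstream. RefSeq itself extends Cartpt farther upstream, to base 99910179 of chromosome 13. The 150 bases are shown as the last of the 3 available for genes with an unadjusted p under 0.05. They held the half-site on both strands, as overlapping matches at 112 and 109 bases upstream, in capitals, and no TATAA.
Cartpt: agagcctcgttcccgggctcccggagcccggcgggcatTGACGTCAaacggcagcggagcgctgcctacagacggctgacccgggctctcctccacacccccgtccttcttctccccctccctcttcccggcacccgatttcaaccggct

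**Figure D3:**
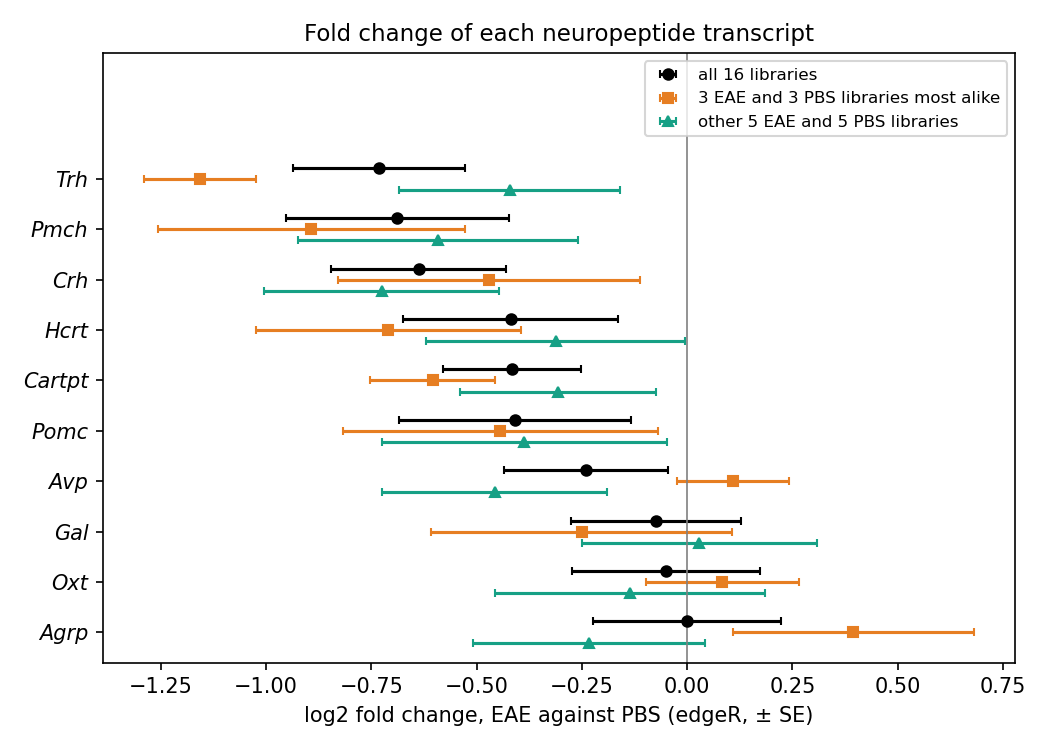
Fitted log2FC of each neuropeptide transcript, EAE against PBS, with its SE, for all 16 libraries (black circles), EAE 6–8 with PBS 5, 7 and 8 (orange squares) and the other 10 libraries (green triangles). Trh was at −0.73, −1.16 and −0.42, and Avp, Oxt, Gal and Agrp had values on both sides of 0.

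The 2 sets of libraries gave a similar centre for the 10 genes, with a median log2FC of −0.46 among the 6 libraries most alike and −0.35 among the other 10. They differed in what passed the test, where the first set had been picked for its small spread. Trh and Cartpt had an adjusted p under 0.05 in the first set, where 13.1% of the mRNAs were lower, and 0 of the 10 genes had one in the other, where 0.0286% were lower and where 1 gene, Crh, had an unadjusted p under 0.05. For no gene of the 10 did the interaction of group and set have an adjusted p under 0.05, and it had one for 11 of all 17885 mRNAs. With a term for the sets in the model of all libraries, the adjusted p of Trh was 0.0438 and it was the single gene of the 10 under 0.05, where 2.94% of the mRNAs were lower.

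Read by library, EAE 4 stood apart from its group. The FPKM of the 10 genes summed to 58.4 in EAE 4, the highest of all libraries, to 26.5–38.7 in the other 7 EAE libraries and to 40.1–53.9 in the PBS libraries. Of the sum in EAE 4, Avp held 25.1 and Cartpt 10.7. EAE 4 had rank 1 of 16 for Avp with Oxt and for Gal with Cartpt, and rank 2 for Hcrt with Pmch. Its rank was 6 for Pomc with Agrp and 10 for Trh with Crh. With each gene scaled to its own mean and SD, the mean over the 10 genes was higher in PBS 2 (0.857) than in EAE 4 (0.786). Without EAE 4 the sums of the groups did not overlap, a separation that was seen after its value was known and that carries no test. The 10 transcripts took 0.00230% to 0.00497% of the counts of a library. PBS 2 was above the median of the 16 libraries for all 10 genes, EAE 4 for 8 and EAE 5 for 1. EAE 4 also had the highest summed FPKM among the EAE libraries of the neuron markers, at 1256, and of the microglia markers, at 192, and it was second for astrocytes and oligodendrocytes. EAE 5, the lowest library for the 10 genes, was the lowest for neurons, at 1069, and the highest for astrocytes, at 1782, and for oligodendrocytes, at 1307. Transcription factors of the hypothalamus, all scarce, summed to 3.30 FPKM in EAE 4 (rank 2 of 16), 2.86 in EAE 5 (rank 3) and 1.97 in PBS 2 (rank 14). The sums of the 10 genes gave these libraries the ranks 1, 16 and 2. These libraries are extremes for the 10 genes, and the ranks were not compared over all 16 libraries. Per 1000 FPKM of the summed neuron markers, the 10 genes had 24.8, 30.2 and 46.5 among EAE libraries (lowest, median and highest) and 30.9, 35.4 and 39.9 among PBS libraries. The part of these differences in tissue content in the results was not tested. Without EAE 4, the number of the 10 genes with an adjusted p under 0.05 was 3, Trh, Crh and Cartpt, where 4.57% of the mRNAs were lower, all 10 had a log2FC below 0, and the median was −0.49.

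**Figure D4:**
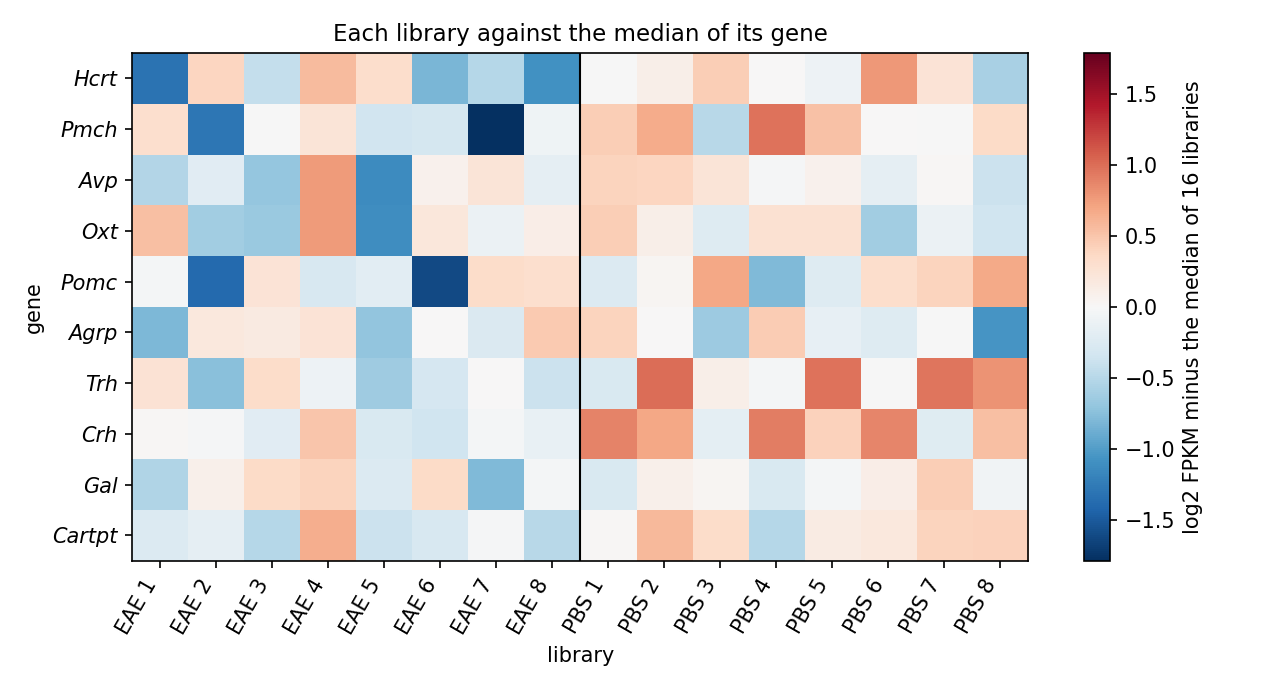
Each library (columns, EAE left of the line and PBS right of it) against the median of the 16 libraries for the 10 genes (rows), as a difference in log2 FPKM. PBS 2 is above the median for all 10 genes, EAE 4 for 8 and EAE 5 for 1, and the 4 high PBS libraries of Trh are PBS 2, 5, 7 and 8.

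Correlations among the 10 genes were uneven. Over all 45 pairs, r across the libraries had a median of 0.25, ranged from −0.38 to 0.70 and was above 0 for 35. Both genes of a pair were measured in the same libraries under the same normalization, and the values are a description. Hcrt and Pmch, which are made in neighbouring neurons of the lateral hypothalamus, had an r of 0.02 (permutation p = 0.951), and Trh and Crh had 0.27 (permutation p = 0.316). The biological coefficient of variation fitted by edgeR was 0.223 for Cartpt to 0.354 for Pomc, at percentiles 71.1 to 82.3 of the tested mRNAs. The mRNAs most like the mean pattern of the 10 genes, by Pearson r over the 16 libraries, were Ndfip1 (r = 0.95), Ergic3 (0.95), Itfg1 (0.94), Atad1 (0.94), Tmem30a (0.94), Itm2b (0.94), Scg5 (0.93) and B3galnt1 (0.93).

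On the FPKM scale, which divides by length, the order of the medians over 16 libraries was Avp (14.8), Cartpt (6.88), Trh (4.01), Hcrt (3.56), Agrp (2.82), Pmch (2.01), Oxt (1.96), Gal (1.80), Pomc (1.14) and Crh (0.850). Avp was above Cartpt in all 16 libraries, and Cartpt above Trh and Gal above Pomc in 14 each. The other neighbours changed places in at least 5 libraries and did not separate beyond their spread. The place of Oxt depends on its length. The counts and FPKM values imply 2266 bases for Oxt, against 537 for its GENCODE M21 transcript, a ratio of 4.22, whereas for the other 9 genes this ratio was 0.71 to 1.27. With the same counts and GENCODE lengths, the median of Oxt is 8.27 FPKM and its rank moves from 7 to 2, between Avp and Cartpt. These counts were annotated with RefSeq and may include reads outside the GENCODE transcript, so that 8.27 can be too high. RefSeq starts Oxt at base 130574519 of chromosome 2, upstream of the GENCODE start at 130576173. The comparison between groups does not depend on the length.

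The genes through which these peptides act were measured as well. Of 19 receptors, 0 had an adjusted p under 0.05 in edgeR and 1 had an unadjusted p under 0.05, and their median log2FC was 0.01. Mchr1, the receptor of melanin-concentrating hormone, had the highest level, with 8.31 ± 1.34 FPKM in EAE libraries (SD, n = 8) and 8.77 ± 1.48 in PBS libraries. Oxtr, the oxytocin receptor, had 1.15 ± 0.168 and 1.33 ± 0.243 FPKM (log2FC −0.27, adjusted p = 0.254 by edgeR), and Trhr, the thyrotropin-releasing hormone receptor, had 1.17 ± 0.292 and 1.36 ± 0.145 (log2FC −0.28, adjusted p = 0.289 by edgeR). Crhr1, the receptor of corticotropin-releasing hormone, had 2.97 ± 0.371 and 3.22 ± 0.578. Of 4 genes that bind, cleave or modify the action of the peptides, 0 had an adjusted or an unadjusted p under 0.05 in edgeR and the log2FC lay between −0.14 (Crhbp, a binding protein of corticotropin-releasing hormone) and −0.01.

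All 6 genes of prohormone processing had a log2FC below 0 and an unadjusted p under 0.05, and 1 passed the correction. Scg5, the chaperone of prohormone convertase 2, had a log2FC of −0.32 (SE 0.08, adjusted p = 0.0294 by edgeR), from 97.9 ± 7.14 to 81.4 ± 11.6 FPKM, and its adjusted p was under 0.05 in 8 of 16 fits without 1 library. Cpe, the carboxypeptidase that trims the peptides, was at 1053 ± 66.3 FPKM in PBS-treated mice and 938 ± 155 in EAE mice (adjusted p = 0.131 by edgeR). Of 20 other neuropeptide genes, 19 were tested, and 14 of these had a log2FC below 0, with a median of −0.23. Npy, a peptide of many forebrain interneurons and of arcuate feeding neurons, had a log2FC of −0.47 (SE 0.12, adjusted p = 0.0440 by edgeR), with 231–397 counts per EAE library and 368–595 per PBS library, and with an adjusted p under 0.05 in 7 of 16 fits without 1 library. The other 18 did not pass, among them Penk, which encodes enkephalins (log2FC −0.36, adjusted p = 0.0651, with −0.10 within the 6 libraries and −0.55 within the other 10), Cck, cholecystokinin (−0.28, 0.11) and Sst, somatostatin (−0.31, 0.228), all by edgeR. Their levels were far above those of the 10 hypothalamic genes, at a mean of 75.1, 79.6 and 79.2 FPKM over all libraries. The log2FC of Sst was 0.06 within the 6 libraries and −0.51 within the other 10.

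Transcription factors that specify hypothalamic neurons were also measured. Of 13, 4 had a log2FC below 0, the median was 0.13, and 0 had an adjusted p under 0.05 or an unadjusted p under 0.05. They were scarce, with a summed FPKM of 1.86–3.30 in EAE libraries and 1.97–3.45 in PBS libraries. Lhx9 was at 0.768 ± 0.133 and 0.679 ± 0.0893 FPKM, and Nkx2-1, a factor of the ventral hypothalamus, at 0.371 ± 0.0997 and 0.400 ± 0.146. Anterior pituitary genes, 8 of 11 of which were tested, had 0 with an adjusted p under 0.05 and 1 with an unadjusted p under 0.05 in edgeR, and summed to 0.661–2.17 and 0.818–1.79 FPKM.

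**Figure D5:**
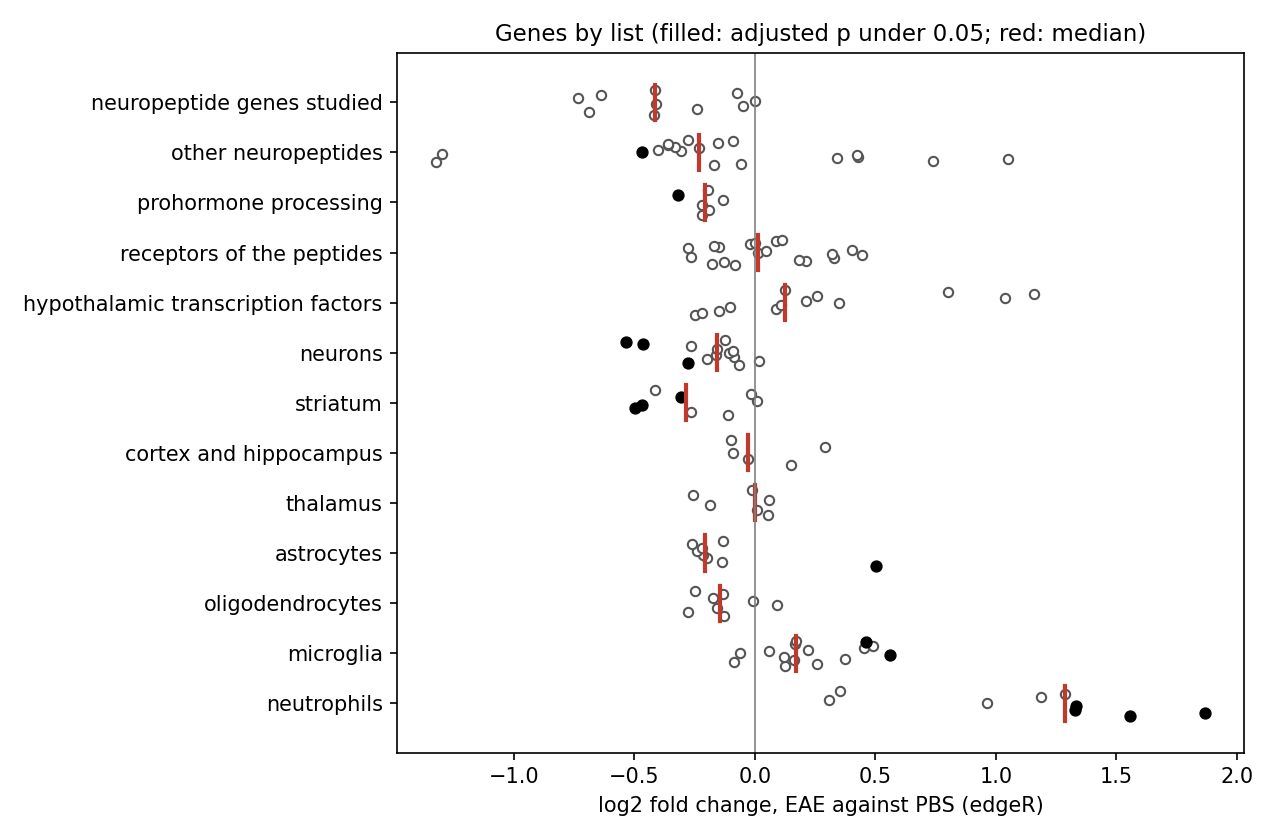
Fitted log2FC, EAE against PBS, of each tested gene (points) by list, filled where the adjusted p of the edgeR test was under 0.05, with the median of the list in red. The 10 hypothalamic neuropeptide genes had a median of −0.41 with 0 filled points, other neuropeptides −0.23, neurons −0.16, striatum −0.29, thalamus 0.00 and hypothalamic transcription factors 0.13.

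Markers of neurons and of other regions give the setting of these values. Of 13 neuron markers, 12 had a log2FC below 0, with a median of −0.16, and 3 passed the test. Gad1 and Slc32a1, a GABA synthesis enzyme and the vesicular GABA transporter, fell by 0.53 (SE 0.09, adjusted p = 0.00309) and 0.47 (SE 0.07, adjusted p = 0.00233) on the log2 scale in edgeR, and both did so in all 16 fits without 1 library. The other GABA synthesis enzyme of the list did not pass (log2FC −0.12, adjusted p = 0.451 by edgeR). Its log2FC was −0.35 within the 6 libraries most alike and 0.02 within the other 10. Slc17a7, the vesicular glutamate transporter of many cortical neurons, did not pass (log2FC −0.16, adjusted p = 0.151 by edgeR). Its log2FC was 0.04 within the 6 libraries and −0.28 within the other 10. Of 8 striatal genes 3 fell, among them Adora2a, an adenosine receptor of striatal projection neurons, by 0.50 on the log2 scale (adjusted p = 0.00839 by edgeR), and the median was −0.29. None of 5 cortical and hippocampal genes (median −0.03) and none of 6 thalamic genes (median 0.00) passed the edgeR test, with 1 and 0 at an unadjusted p under 0.05. Microglia markers had a median of 0.17, with 2 of 15 below 0 and 2 of 15 passing the edgeR test. Those that passed were Itgam, which encodes CD11b, higher by 0.46 (adjusted p = 0.00179), and Trem2, higher by 0.56 (adjusted p = 0.0282), on the log2 scale in edgeR. Trem2 passed in 11 of the 16 fits that left out 1 library. Of 8 astrocyte markers 7 had a log2FC below 0, with a median of −0.21 over the list. In edgeR 5 of them had an unadjusted p under 0.05, and 0 passed the correction. The exception was Gfap, a filament protein of reactive astrocytes, which rose (log2FC 0.50, adjusted p = 0.0312 by edgeR). The log2FC of Gfap was −0.05 within the 6 libraries most alike and 0.87 within the other 10. Its adjusted p was under 0.05 in 8 of 16 fits without 1 library. Of 8 oligodendrocyte markers 0 passed and 3 had an unadjusted p under 0.05. Neutrophil genes had a median of 1.29, with 4 of 9 higher, among them Ngp.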

How the data were processed

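Microglia libraries (stranded total RNA, ribosomal RNA removed) from 8 EAE and 8 PBS-treated mice were used, grouped by their labels. Per the labels, the authors aligned reads with HISAT2 2.1.0 (GRCm38) and counted them with HTSeq 0.11.2. The deposited tables hold raw counts and FPKM for 21878 mRNAs, annotated with RefSeq, and the strand setting of the counting is not given in the sources used here. Counts and FPKM give the same length for each of 7749 well-covered mRNAs in every library. Counts were tested here with edgeR 4.0.16 (quasi-likelihood, TMM, a total of at least 16 counts, Benjamini-Hochberg over all tested mRNAs). Called means an adjusted p under 0.05 and a |log2FC| over 1. In simulated counts, 98% of 200 mRNAs changed by 1.5 on the log2 scale were recovered, and 1.01% of the calls were on unchanged mRNAs. Only mRNAs above a minimum mean count were changed, and no set of libraries was made more alike. The recovery of smaller changes, such as those fitted for the 10 genes, was not simulated. DESeq2 1.42.0, limma 3.58.1, other scalings and filters, and fits within sets of libraries or without 1 library were alternatives. Named genes were the 10 members, at most 4 per list (smallest p, highest FPKM) and the 8 most alike in pattern, and 1 listed gene is not reported here. Members and lists were chosen with earlier results of these data known. The labels give no more than 1 library per mouse, so p-values measure the spread between these libraries. Positions and lengths came from GENCODE M21 and sequences from RefSeq and GENCODE.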

Additional observations from a re-analysis of the deposited data

Results flagged for a closer look

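In 20 groups of 8 FPKM values (10 genes in each of the 2 conditions), the gap of an extreme library to its nearest neighbour was set against the range of the group, and 2 groups exceeded Dixon's 95% critical value for 8 samples. Chance gives about 1 in 20. Both concern EAE 4. For Crh the gap was 0.634 of the range, with 1.20 FPKM in EAE 4 and 0.663–0.858 in the other EAE libraries. For Cartpt it was 0.671, with 10.7 FPKM in EAE 4 and 4.83–6.78 in the others.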

How the results depend on the processing

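The number of the 10 genes called was 0 in the fit of all 16 libraries, where 0.117% of the tested mRNAs were called. It was 1 within the 6 libraries most alike, where 0.423% were called lower (104 mRNAs higher and 73 lower of 17239). The number with an adjusted p under 0.05 was 0, and became 1 with DESeq2 (3.73% of all mRNAs lower), 1 with a term for the 2 sets (2.94%), 2 within the 6 libraries (13.1%) and 0 to 3 when 1 library was left out (4.57% without EAE 4, which gave 3). The 16 listed genes under 0.05 became 26 with DESeq2, 52 within the 6 libraries, 2 within the other 10 and 10 to 34 when 1 library was left out. Of the 8 pairs of genes, 1 correlation passed, and 0 did within either set or without the 2 libraries farthest from the median. The log2FC changed sign for Avp (0.11 within the 6 libraries), Oxt (0.0004 with library totals alone, 0.084 within the 6, −0.19 to 0.060 without 1 library), Agrp (−0.0015 with RLE factors, −0.0013 with DESeq2, −0.23 within the 10, −0.10 to 0.10 without 1 library) and Gal (0.029 within the 10, −0.14 to 0.0036 without 1 library). The r of Hcrt and Pmch became −0.018 on log2(FPKM + 0.1), −0.30 with the group means removed and −0.24 within the 10. The r of Trh and Crh became −0.23 with the group means removed, that of Hcrt and Lhx9 −0.26 within the 10, and that of Oxt and Otp −0.027 within the 6 and −0.13 without the 2 libraries farthest from the median. The cause of these changes was not tested, beyond the fewer libraries in some fits. The group means, the interaction and the sum without EAE 4 were chosen after seeing the data.

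Replicate numbers do not pair the libraries. The correlation of deviations from the group means was −0.257 to 0.59 over 8 pairs of the same number, with 3 over 0.1, and 2 EAE libraries correlated best with their own number. With the replicate number as a block, 0 of the 10 genes were called, 0 had an adjusted p under 0.05 and 21 listed genes did. In that fit 150 of 17885 mRNAs were higher and 367 lower at an adjusted p under 0.05, with 15 called higher and 1 lower. Depth limits the precision, since 6 of the 10 transcripts had at most 99 counts in any library.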

Other observations

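Other tissue lists gave further values. Of 6 choroid plexus genes, 1 passed the edgeR test: Ttr, which encodes transthyretin, a carrier of thyroid hormone, had a log2FC of −0.88 (SE 0.18, adjusted p = 0.0163), with 2029–3816 counts per EAE library and 3281–7714 per PBS library, and its adjusted p was under 0.05 in all 16 fits without 1 library. The log2FC of Ttr was −0.30 within the 6 libraries most alike and −1.11 within the other 10. Of 6 endothelial and 6 cerebellar genes, 0 had an adjusted p under 0.05 in edgeR, with 0 and 2 at an unadjusted p under 0.05. Of 8 hindbrain genes 3 were tested, 0 had an adjusted p under 0.05 and 1 had an unadjusted p under 0.05, and the 8 genes summed to 0.00422–0.107 FPKM in the EAE group and 0–0.199 FPKM in the PBS group.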
